A study of Mus musculus with 12 samples.

Results

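The genes described here are 43 markers of white blood cell lineages, chosen by name from the 52636 genes of a kidney expression table made from 12 mouse libraries. They cover all leukocytes (Ptprc, Laptm5), macrophages and monocytes (17 genes), the 2 ligands of the macrophage growth factor receptor, neutrophils (5), T cells (5), B and plasma cells (5), natural killer (NK) and cytotoxic cells (4) and dendritic cells (3). The 4 groups, of 3 libraries each, are kidneys of wild-type C57BL/6 males that were 8 weeks old. The cisplatin+PCN group received PCN (pregnenolone carbonitrile, a synthetic steroid and agonist of the mouse pregnane X receptor, PXR) by gavage at 40 mg/kg daily for 4 days, then cisplatin, a platinum drug that injures the renal tubule, as a single intraperitoneal dose of 20 mg/kg, and PCN for 3 days more. The cisplatin group received corn oil in place of PCN and the same cisplatin dose. The PCN group received PCN and saline, and the control group corn oil and saline. Kidneys were taken 4 days after the injection. The treatment description places the cisplatin group both among the animals given PCN beforehand and among those given oil, so the groups are taken as the library titles give them. The labels do not state that each library is a different animal, so p-values reflect only how much these libraries vary, part of which may be technical.

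The healthy kidney holds a network of resident macrophages, which depend on the receptor encoded by Csf1r and its ligands, colony-stimulating factor 1 and interleukin 34. Injury to the tubule is known to bring neutrophils and monocytes into the kidney, and injured tubular epithelium is itself known to make both Csf1r ligands. Lymphocytes and dendritic cells are a small part of the healthy mouse kidney, some of them in the blood that remains in the tissue. Values are FPKM, fragments per kilobase of gene and scaled by a size set for each library, so they can be compared between genes. In whole tissue, fewer cells of a type and less RNA per cell cannot be told apart.

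Libraries held 18914607 to 26530485 reads in genes, and 1 FPKM stood for 18.7 to 27.2 reads per kilobase. The summed FPKM of 9 proximal tubule genes was 3170 to 8460 in cisplatin+PCN, 3217 to 3710 in cisplatin, 30630 to 34215 in PCN and 28461 to 33445 in control libraries. That of 9 tubular injury genes was 8500 to 14923 in cisplatin+PCN, 14065 to 18482 in cisplatin, 549 to 591 in PCN and 602 to 645 in control libraries. Replicate 1 of cisplatin+PCN stood apart from the others of its group, with the injury gene Havcr1 at 22.8 FPKM against 321 and 262, and it was the lowest of its group for 12 of the 16 markers that were tested. Of the 43 markers, 16 reached 1 FPKM in at least 3 of the 12 libraries and entered the main test, limma on log2(FPKM + 1) over 13540 genes, with a Benjamini-Hochberg adjusted p under 0.05 over all genes as the threshold. Retnlg reached that level only in libraries with cisplatin and Aif1 only in libraries without it, so their entry already required a difference. For the lower markers, limma-voom was run on the read counts recovered from the FPKM values, for genes with at least 10 reads in at least 3 libraries, which held 36 markers among 17218 genes. The limma values below are differences in log2(FPKM + 1), which understate changes of low genes, and the limma-voom values are log2 changes of reads.

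Promoter sequence, the 250 bases before the RefSeq start on GRCm38.p6, is shown for a macrophage gene and a Csf1r ligand that were higher with cisplatin and for 2 T cell genes that were lower, because all but the ligand hold the same short motif. The capitals mark GAGGAA, the core that the myeloid and B cell factor PU.1 binds, or its complement TTCCTC.
Cd68, chr11:69666171-69666420, minus strand: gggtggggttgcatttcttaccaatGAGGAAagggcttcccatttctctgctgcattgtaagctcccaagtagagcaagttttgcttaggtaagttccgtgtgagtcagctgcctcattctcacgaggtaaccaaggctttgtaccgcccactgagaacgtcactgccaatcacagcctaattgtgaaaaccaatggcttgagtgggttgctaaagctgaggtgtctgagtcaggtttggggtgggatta
Csf1, chr3:107760470-107760719, minus strand: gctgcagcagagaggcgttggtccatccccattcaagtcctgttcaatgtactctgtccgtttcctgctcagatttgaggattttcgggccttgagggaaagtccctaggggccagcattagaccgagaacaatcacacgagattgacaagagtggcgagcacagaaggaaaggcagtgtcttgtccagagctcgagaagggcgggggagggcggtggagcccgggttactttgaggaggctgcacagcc
Cd3d, chr9:44981536-44981785, plus strand: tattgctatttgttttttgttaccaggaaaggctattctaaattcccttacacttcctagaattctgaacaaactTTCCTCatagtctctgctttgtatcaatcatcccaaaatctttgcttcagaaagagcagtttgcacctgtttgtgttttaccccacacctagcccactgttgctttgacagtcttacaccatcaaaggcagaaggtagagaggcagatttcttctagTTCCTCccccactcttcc
Cd8a, chr6:71373177-71373426, plus strand: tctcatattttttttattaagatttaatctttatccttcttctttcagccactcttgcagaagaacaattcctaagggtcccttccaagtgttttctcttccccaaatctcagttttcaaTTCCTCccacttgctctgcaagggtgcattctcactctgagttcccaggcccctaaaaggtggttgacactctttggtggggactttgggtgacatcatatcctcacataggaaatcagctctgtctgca
A promoter entry was found for 32 of the 43 markers, and 19 of these (59.4%) held GAGGAA on either strand, against 23.1% of 27025 genes. The motif TGANTCA, bound by AP-1, was in 3 of 32 markers (9.4%) against 6.9% of genes, and TTGCNNAA, bound by C/EBP factors, in 7 of 32 (21.9%) against 9.6%. The searches ran on both strands and the 3 motifs may overlap. Cd68 held all 3 motifs. A match is a run of letters, not a measured binding site, and the same core stood in genes that differed in opposite directions with cisplatin.

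The first question was what cisplatin did to these markers. In kidneys given cisplatin alone, 7 of the 16 tested markers were higher than in control and 3 were lower, while 32.0% of all genes tested were higher and 31.9% lower. The median change of the 16 was 0.28 (log2), against 0.0088 over all genes. The higher markers were the macrophage genes Cd14, Cd68, Fcgr3 and Fcer1g, both Csf1r ligands and the neutrophil gene Retnlg. The lower ones were the macrophage genes Csf1r and Aif1 and the immunoglobulin gene Igkc. The share of markers called in either direction, 10 of 16, lies near the 63.9% of all genes called, so the count does not set the markers apart. With no minimum on FPKM, 42 markers could be tested, of which 9 were higher and 15 lower, against 16.3% and 15.7% of 31636 genes. The median change of these 42 was below 0, at -0.0888 against 0 over all genes.

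Cd14, the lipopolysaccharide co-receptor of monocytes and macrophages, was the highest macrophage marker in cisplatin kidneys. It stood at 31.5, 32.8 and 27.2 FPKM in cisplatin+PCN libraries, 57.1, 44.1 and 96.6 in cisplatin libraries, 3.20, 3.37 and 3.68 in PCN libraries and 3.54, 3.96 and 3.21 in control libraries. Cisplatin libraries were highest, cisplatin+PCN libraries lay below them and above all others, and PCN and control libraries overlapped. The change with cisplatin was 3.80 ± 0.22 (log2, SE; adjusted p = 1.79e-07 in limma's test). Cd68, a lysosomal glycoprotein of macrophages (ENSMUSG00000018774, chromosome 11, from 69664213 to 69666153), had 5.001, 15.6 and 8.17 FPKM in cisplatin+PCN libraries, 15.4, 16.6 and 17.8 in cisplatin, 1.36, 1.78 and 1.51 in PCN and 2.21, 2.27 and 1.49 in control. Every library with cisplatin lay above every library without it, and the change against control was 2.57 ± 0.28 (adjusted p = 1.56e-05 in limma's test). Fcgr3, a low-affinity Fc receptor for immunoglobulin G (chromosome 1, from 171051174 to 171064935), had 7.18, 9.23 and 8.88 FPKM in cisplatin libraries and 1.85, 1.62 and 2.14 in control libraries, a change of 1.71 ± 0.18 (adjusted p = 1.12e-05 in limma's test). Fcgr3 shares sequence with other Fc receptor genes, so its reads could be split between them. Fcer1g, the signalling chain that Fc receptors share, had 8.32, 9.21 and 9.95 FPKM in cisplatin libraries and 5.02, 6.42 and 5.32 in control libraries, a change of 0.63 ± 0.09 (adjusted p = 0.000126 in limma's test). Tyrobp, which encodes another signalling chain, did not pass, at 13.8 ± 1.55 FPKM in cisplatin and 10.8 ± 0.448 FPKM in control libraries (SD, n = 3, adjusted p = 0.0591 in limma's test). The Tyrobp values of these groups did not overlap. Without replicate 1 of cisplatin+PCN, which enters the shared estimate of spread, its adjusted p was 0.00464, and without replicate 2 it was 0.0498.

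Other macrophage markers were lower in the same kidneys. Csf1r, the receptor on which resident macrophages depend, had 4.24, 4.38 and 4.54 FPKM in cisplatin+PCN libraries, 3.79, 4.24 and 3.53 in cisplatin, 10.1, 12.1 and 9.58 in PCN and 8.51, 10.1 and 9.28 in control. No library with cisplatin reached the level of any library without it, and the difference between cisplatin and control was -1.08 ± 0.09 (adjusted p = 2.43e-06 in limma's test). Aif1, which encodes the macrophage protein IBA1, had 0.373, 0.594 and 0.192 FPKM in cisplatin libraries and 0.907, 1.97 and 1.61 in control libraries, a difference of -0.83 ± 0.19 (adjusted p = 0.00296 in limma's test). Adgre1, which encodes the macrophage antigen F4/80, had 0.992, 1.15 and 0.679 FPKM in cisplatin and 1.45, 1.49 and 1.34 in control libraries. These Adgre1 values did not overlap, but the difference of -0.33 ± 0.15 did not pass (adjusted p = 0.0845 in limma's test), and its adjusted p was 0.0403 without replicate 1 of cisplatin+PCN. The ratio of Cd68 to Csf1r within a library was 1.18 to 3.55 in cisplatin+PCN, 3.92 to 5.05 in cisplatin, 0.135 to 0.157 in PCN and 0.161 to 0.260 in control libraries. Lyz2, the lysozyme of macrophages and neutrophils, overlapped between all groups, with 16.0 to 37.2 FPKM in cisplatin and 19.2 to 46.1 FPKM in control libraries (adjusted p = 0.569 in limma's test). Its paralog Lyz1 is identical at 425 of 447 coding bases, so reads could be assigned to either. The pan-leukocyte lysosomal gene Laptm5 was also not called, at 4.14 ± 0.489 FPKM in cisplatin and 3.42 ± 0.635 FPKM in control libraries. Fcgr1, the high-affinity Fc receptor, overlapped as well (0.401 to 0.853 FPKM in cisplatin and 0.310 to 1.51 FPKM in control libraries), but was lower with an adjusted p of 0.0446 in limma's test without control replicate 1.

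**Figure D1:**
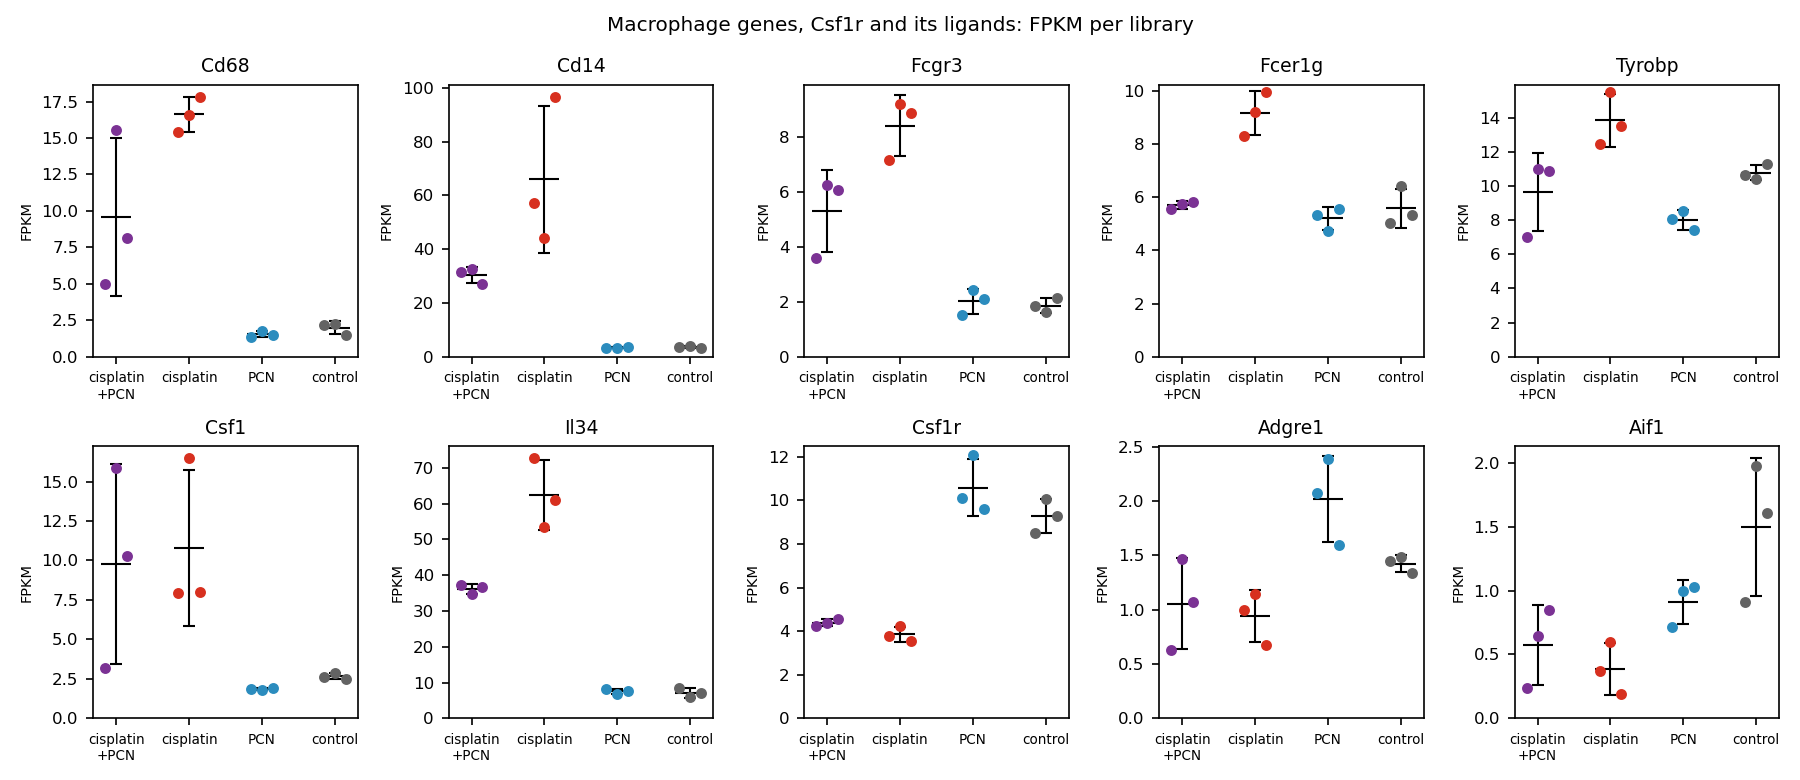
FPKM of 8 macrophage markers and the 2 Csf1r ligands in each library (points), with group means and SD (n = 3 each) and linear axes from 0. Cd68, Cd14, Fcgr3, Csf1 and Il34 were higher, and Csf1r lower, in every library with cisplatin than in every library without it.

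Low macrophage markers were read from the recovered counts, where 10 of 36 markers were higher with cisplatin and 14 lower, against 33.1% and 25.2% of all genes. The median change of the 36 was -0.349, against 0.099 over all genes. Of the 15 macrophage markers in that test, 7 were higher and 3 lower. Besides those above, the higher ones were the scavenger receptor genes Cd163 (1.90 ± 0.38, adjusted p = 0.000914 by limma-voom) and Msr1 (1.95 ± 0.61, adjusted p = 0.0143 by limma-voom) and the mannose receptor gene Mrc1 (0.80 ± 0.28, adjusted p = 0.0247 by limma-voom). Msr1 had 0.401, 0.853 and 0.393 FPKM in cisplatin and 0.160, 0.117 and 0.141 FPKM in control libraries, and its call was lost without control replicate 2 (adjusted p = 0.0518). Cd163 had 0.485, 0.341 and 0.565 FPKM in cisplatin and 0.108, 0.0963 and 0.197 FPKM in control libraries. Mrc1 had 0.856, 1.01 and 0.962 FPKM in cisplatin and 0.621, 0.633 and 0.484 FPKM in control libraries. The Mrc1 groups stood apart, but the call was lost without cisplatin replicate 2 (adjusted p = 0.0626), cisplatin replicate 3 (0.0576) or control replicate 3 (0.0956). Ly6c2, which marks inflammatory monocytes and has close relatives in the Ly6 family, was lower, with 0.171, 0.111 and 0.147 FPKM in cisplatin and 0.390, 0.880 and 0.588 FPKM in control libraries (-1.94 ± 0.46, adjusted p = 0.00266 by limma-voom). Trem2, a lipid receptor of macrophages, stayed at or under 0.236 FPKM in every library and did not pass (adjusted p = 0.179 by limma-voom), except without cisplatin replicate 1 (0.0412). Ptprc, which encodes the leukocyte antigen CD45, had 0.374, 0.456 and 0.423 FPKM in cisplatin libraries and 0.619, 0.733 and 0.610 FPKM in control libraries. That difference was -0.55 ± 0.20 (adjusted p = 0.0290 by limma-voom), and it did not pass without cisplatin replicate 1 (0.0914), cisplatin replicate 3 (0.0734) or control replicate 2 (0.104).

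Both ligands of Csf1r were higher with cisplatin. Il34 (ENSMUSG00000031750, chromosome 8, from 110741829 to 110805924), the ligand made largely by epithelium in the kidney, had 37.2, 34.6 and 36.6 FPKM in cisplatin+PCN libraries, 72.7, 53.4 and 61.0 in cisplatin, 8.28, 6.84 and 7.58 in PCN and 8.54, 5.91 and 6.96 in control. The 3 levels, with cisplatin alone, with both drugs and without cisplatin, did not overlap. The change with cisplatin was 2.96 ± 0.13 (adjusted p = 3.88e-08 in limma's test). Csf1 (chromosome 3, from 107741048 to 107760469), whose promoter above holds none of the 3 motifs, had 3.17, 15.9 and 10.3 FPKM in cisplatin+PCN libraries, 7.92, 16.5 and 8.00 in cisplatin, 1.87, 1.79 and 1.93 in PCN and 2.63, 2.87 and 2.50 in control. All libraries with cisplatin were above all without it, with a wide spread in both injured groups, and the change with cisplatin was 1.61 ± 0.42 (adjusted p = 0.00575 in limma's test). Il34 was above Csf1 in every library, by a ratio of 2.19 to 11.7 in cisplatin+PCN, 3.24 to 9.19 in cisplatin, 3.81 to 4.42 in PCN and 2.06 to 3.25 in control libraries. The ratio of Il34 to the receptor gene Csf1r was 7.91 to 8.77 in cisplatin+PCN, 12.6 to 19.2 in cisplatin, 0.567 to 0.821 in PCN and 0.587 to 1.003 in control libraries. Both ligands and the summed tubular injury genes given above were higher in all libraries with cisplatin than in all without it. Within each injured group of 3 libraries, the library with the lowest injury sum had the highest Il34 and the lowest Csf1. In cisplatin+PCN libraries Il34 spanned only 34.6 to 37.2 FPKM. PCN libraries had lower injury sums and lower Csf1 than control libraries, and the Il34 values of these groups overlapped. The part of tubular injury in the ligand levels was not tested.

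Among neutrophil markers only Retnlg, a resistin-like gene of mouse neutrophils, reached a level that the main test could read. It had 1.44, 5.43 and 0.780 FPKM in cisplatin+PCN libraries, 3.59, 4.70 and 5.13 in cisplatin, 0.431, 0.0838 and 0.152 in PCN and 0.0879, 0.577 and 0.515 in control. The libraries with cisplatin lay above all others, with replicate 2 of cisplatin+PCN at the cisplatin level and the rest of that group below it, and the change with cisplatin alone was 1.98 ± 0.37 (adjusted p = 0.000818 in limma's test). Csf3r, the receptor for granulocyte colony-stimulating factor, had 0.273, 0.672 and 0.590 FPKM in cisplatin and 0.385, 0.304 and 0.285 FPKM in control libraries, overlapped and did not pass (adjusted p = 0.125 by limma-voom; 0.0120 without cisplatin replicate 1). Ly6g, the surface antigen used to identify mouse neutrophils, had 0, 4 and 0 reads in cisplatin+PCN and 3, 1 and 2 reads in cisplatin libraries, and 0 reads in each PCN and control library. A count of 0 allows up to 0.170 FPKM for Ly6g at these depths, and too few reads were present for a test. The granule genes of immature neutrophils were all but unread, with Mpo at 0 reads in all 12 libraries, which allows up to 0.0468 FPKM, and Elane at 3 reads in all. Of 13 other neutrophil genes, 8 could be tested by limma-voom and all 8 were higher with cisplatin, against 33.1% of all genes, though the minimum on reads admits genes that are high in the injured groups alone. Among the 5 that could not be tested, the granule gene Ltf had 0.0151 to 0.0377 FPKM in cisplatin and 0.0389 to 0.186 FPKM in control libraries, and Camp had 0 to 0.0685 FPKM in cisplatin and 0 to 0.236 FPKM in control libraries. The calprotectin gene S100a8 had 7.11, 8.30 and 11.4 FPKM in cisplatin and 1.85, 0.632 and 1.03 FPKM in control libraries (2.21, adjusted p = 0.000309 in limma's test), S100a9 changed by 2.36 and Hdc, the histamine-forming enzyme, by 2.13.

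Apart from Igkc, lymphocyte and dendritic cell markers were low in every kidney, and 10 of the 17 were lower with cisplatin. With no minimum on FPKM, all 17 of these markers could be tested, and 10 were lower with cisplatin, 7 did not pass and 0 were higher (median -0.26), against 15.7% lower and a median of 0 over all genes. By limma-voom 15 could be tested, and 10 were lower, 5 did not pass and 0 were higher (median -1.77, against 0.099 over all genes). The 0 for higher stands beside 33.1% of all genes higher by limma-voom and 16.3% by limma with no minimum. Of the 15, Cd3d, Cd79a, Ms4a1, Nkg7, Gzma, Gzmb and Xcr1 reached 10 reads only in libraries without cisplatin, so their entry depended on being high there.

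Among T cell genes, Cd3d, a chain of the T cell receptor complex, had 1, 0 and 5 reads in cisplatin+PCN libraries, 0, 4 and 1 in cisplatin, 12, 17 and 15 in PCN and 8, 14 and 6 in control. Cd8a, the co-receptor of cytotoxic T cells, had 18, 7 and 15 reads in cisplatin+PCN, 1, 2 and 9 in cisplatin, 42, 49 and 25 in PCN and 18, 43 and 29 in control libraries. Their promoters above both hold TTCCTC, as the Cd68 promoter holds its complement. The change with cisplatin alone was -2.66 ± 0.80 for Cd3d (adjusted p = 0.0122 by limma-voom) and -3.10 ± 0.63 for Cd8a (adjusted p = 0.00103 by limma-voom). The call for Cd3d was lost without cisplatin replicate 1 (adjusted p = 0.0561) or replicate 3 (0.0543). Cd4, the helper T cell co-receptor that some myeloid cells also carry, overlapped between cisplatin and control (adjusted p = 0.657 by limma-voom), and Trac, the constant gene of the alpha chain, had 0.781 ± 0.268 FPKM in cisplatin and 1.05 ± 0.126 FPKM in control libraries (adjusted p = 0.287 in limma's test). Cd3e had 55 reads in all 12 libraries and was not tested by limma-voom.

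Among B and plasma cell genes, Igkc, the constant gene of the kappa light chain (chromosome 6, from 70726435 to 70726966), had 2.47, 3.10 and 2.75 FPKM in cisplatin+PCN libraries, 1.86, 1.55 and 1.72 in cisplatin, 5.59, 4.21 and 4.17 in PCN and 7.94, 4.29 and 7.56 in control. The libraries fell into 3 levels, lowest with cisplatin alone, and the change with cisplatin was -1.45 ± 0.18 (adjusted p = 3.74e-05 in limma's test). Jchain, which joins immunoglobulin polymers, had 0.165, 0.120 and 0.204 FPKM in cisplatin and 0.658, 0.627 and 0.782 FPKM in control libraries (-1.94 ± 0.42, adjusted p = 0.00148 by limma-voom). Ms4a1, which encodes the B cell antigen CD20, had 0, 2 and 1 reads in cisplatin and 6, 8 and 12 reads in control libraries (-2.87 ± 0.74, adjusted p = 0.00496 by limma-voom). The B cell receptor gene Cd79a had 2, 9 and 3 reads in cisplatin and 15, 7 and 19 reads in control libraries. These Cd79a counts overlapped, and the call (-1.60 ± 0.59, adjusted p = 0.0315 by limma-voom) was lost without cisplatin replicate 1 (0.0994), cisplatin replicate 3 (0.136), control replicate 1 (0.0825) or control replicate 3 (0.101). Its partner Cd79b had 0.449 ± 0.0619 FPKM in cisplatin and 0.878 ± 0.226 FPKM in control libraries and did not pass (adjusted p = 0.0602 by limma-voom; 0.0325 without control replicate 2 and 0.0493 without PCN replicate 3). With no minimum on FPKM it was among the 10 lower markers.

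The NK granule gene Nkg7 had 0, 2 and 1 reads in cisplatin and 8, 18 and 11 reads in control libraries (-3.34 ± 0.71, adjusted p = 0.00132 by limma-voom). The serine protease gene Gzmb had 0.145, 0.0603 and 0.0511 FPKM in cisplatin and 0.186, 0.611 and 0.156 FPKM in control libraries. Gzmb stood apart by a narrow margin, and its call (-1.57 ± 0.61, adjusted p = 0.0409 by limma-voom) was lost without cisplatin replicate 2 (0.0951), cisplatin replicate 3 (0.148), control replicate 2 (0.171), PCN replicate 1 (0.0506) or cisplatin+PCN replicate 3 (0.0516). Gzma, its relative, overlapped between cisplatin and control (adjusted p = 0.699 by limma-voom), and Klrb1c, the NK receptor NK1.1, had 29 reads in all 12 libraries and was not tested by limma-voom. Of the dendritic cell genes, the chemokine receptor gene Xcr1 of cross-presenting cells had 0, 4 and 0 reads in cisplatin and 16, 41 and 6 reads in control libraries (-4.01 ± 1.05, adjusted p = 0.00524 by limma-voom). The lectin gene Cd209a had 0, 0.137 and 0.255 FPKM in cisplatin and 0.608, 0.720 and 0.678 FPKM in control libraries (-2.76 ± 0.72, adjusted p = 0.00534 by limma-voom). Neither gene's groups overlapped, whereas those of Flt3, the receptor of dendritic cell precursors, did (adjusted p = 0.693 by limma-voom).

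Markers of red blood cells were lower in the same libraries as the lymphocyte markers. The summed FPKM of 7 erythroid genes was 2.87 to 4.42 in cisplatin+PCN, 1.91 to 7.95 in cisplatin, 348 to 552 in PCN and 330 to 1198 in control libraries, and all 6 that could be tested were lower with cisplatin. Hbb-bs, a beta globin gene with near-identical relatives, had 3.45, 0 and 0.335 FPKM in cisplatin and 663, 183 and 253 FPKM in control libraries. The sums of 5 platelet genes were 2.55 to 3.51 in cisplatin+PCN, 4.40 to 5.05 in cisplatin, 2.52 to 3.58 in PCN and 2.77 to 4.37 FPKM in control libraries. Of 8 mast cell and eosinophil genes 1 could be tested and it was not called, and of 9 adipocyte genes 1 was higher and 1 lower with cisplatin, with sums of up to 242 FPKM in PCN and 164 FPKM in control libraries. The part of blood held in the tissue in the leukocyte values was not tested, and neither was that of the tubule RNA whose levels are given above.

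**Figure D2:**
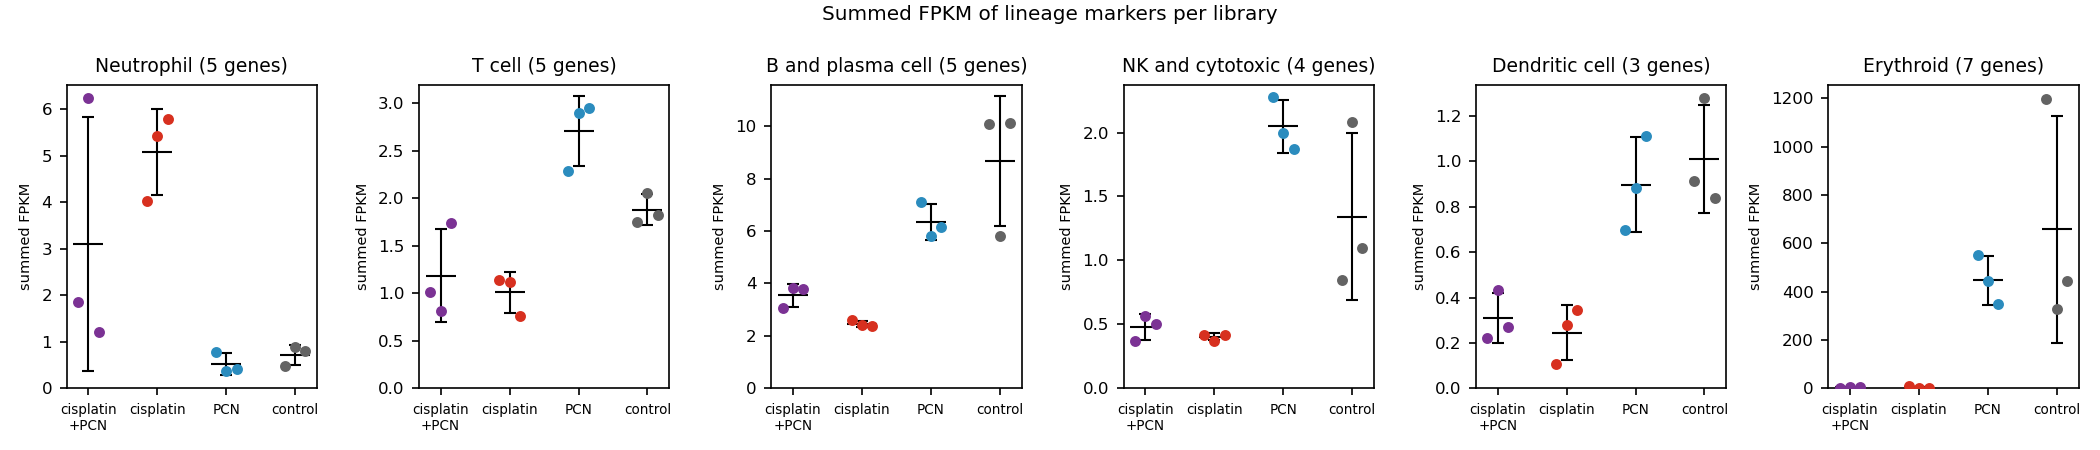
Summed FPKM of the markers of each lineage and of 7 erythroid genes in each library (points), with group means and SD (n = 3 each) and linear axes from 0. T, B, NK and dendritic sums of these markers were lower in all libraries with cisplatin than in all without it, as were the erythroid sums. The T cell sums stood apart by a narrow margin, at most 1.73 with cisplatin and at least 1.75 without it. The neutrophil sums were higher with cisplatin, where Retnlg made up most of each.

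The same contrast in kidneys given PCN, cisplatin+PCN against PCN, shares no library with cisplatin against control. The p-values of both, however, use 1 estimate of spread from all 12 libraries, so they are not independent. Here 6 of the 16 tested markers were higher and 3 lower by limma, against 23.5% and 23.4% of all genes (median 0.15, against 0.0052). Cd14 differed by 2.83 ± 0.22, Cd68 by 1.93 ± 0.28, Fcgr3 by 1.05 ± 0.18, Il34 by 2.12 ± 0.13, Csf1 by 1.69 ± 0.42 and Retnlg by 1.32 ± 0.37 (adjusted p = 2.87e-06, 0.000239, 0.000692, 6.96e-07, 0.00652 and 0.0138 in limma's test). Csf1r was lower by the same measure (-1.10 ± 0.09, adjusted p = 5.05e-06 in limma's test). Adgre1 had 0.625, 1.46 and 1.07 FPKM in cisplatin+PCN and 2.07, 2.39 and 1.60 FPKM in PCN libraries (-0.57 ± 0.15, adjusted p = 0.0114 in limma's test). Igkc was lower too (-0.58 ± 0.18, adjusted p = 0.0203 in limma's test), a call lost by limma-voom (adjusted p = 0.0869) and without cisplatin+PCN replicate 1 (0.0579), cisplatin+PCN replicate 3 (0.0502) or PCN replicate 1 (0.0801). The call for Retnlg was lost when only these 2 groups were fitted (adjusted p = 0.0522). Fcer1g and Aif1, both called with cisplatin alone, did not pass here (adjusted p = 0.325 and 0.230 in limma's test). Fcer1g had 5.55, 5.75 and 5.83 FPKM in cisplatin+PCN and 5.35, 4.72 and 5.56 FPKM in PCN libraries, which overlapped. Tyrobp overlapped as well and did not pass (adjusted p = 0.222 in limma's test), except without cisplatin+PCN replicate 1 (0.00409), and Trac did not pass (adjusted p = 0.0936 in limma's test), except without cisplatin+PCN replicate 3 (0.0175).

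By limma-voom, 8 of 36 markers were higher and 13 lower in cisplatin+PCN than in PCN kidneys, against 25.7% and 16.6% of all genes. The median change of the 36 was -0.513, against 0.10 over all genes. With no minimum on FPKM the median of 42 markers was -0.135, against 0. Of the 15 lymphoid and dendritic markers 9 were lower, 6 did not pass and 0 were higher (median -1.60, against 0.10), and with no minimum on FPKM 10 of 17 were lower and 0 higher, against 10.6% and 9.92% of all genes. The lower ones by limma-voom were Cd3d, Cd4, Cd8a, Cd79a, Ms4a1, Nkg7, Gzma, Xcr1 and Cd209a, with changes of -1.55 ± 0.37 (Cd4) to -3.47 ± 0.75 (Ms4a1). Of these, Cd3d, Cd79a, Ms4a1, Nkg7, Gzma and Xcr1 reached 10 reads only in libraries without cisplatin, so their entry already required a difference. Cd4 had 0.109, 0.0877 and 0.0588 FPKM in cisplatin+PCN and 0.249, 0.253 and 0.310 FPKM in PCN libraries, with no overlap (adjusted p = 0.00453 by limma-voom). Gzma had 0.198, 0.195 and 0.314 FPKM in cisplatin+PCN and 0.912, 0.456 and 1.10 FPKM in PCN libraries, again with no overlap (adjusted p = 0.0175 by limma-voom). Ptprc was lower, with 0.291, 0.470 and 0.425 FPKM in cisplatin+PCN and 0.683, 0.723 and 0.786 FPKM in PCN libraries (-0.83 ± 0.19, adjusted p = 0.00409 by limma-voom). Ly6c2 was lower and Cd163 and Msr1 were higher, as with cisplatin alone. Leaving out single libraries ended the calls of Adgre1, Cd209a, Csf1, Gzma, Ly6c2, Msr1, Retnlg and Xcr1 by limma-voom, at adjusted p values up to 0.145. Others passed by limma-voom only when 1 library was left out. Mrc1 (adjusted p = 0.00290), Tyrobp (0.00686) and Laptm5 (0.0253) were higher by limma-voom without cisplatin+PCN replicate 1. Jchain (0.0268 without PCN replicate 1 and 0.0411 without cisplatin+PCN replicate 2), Gzmb (0.0332 without control replicate 2) and Igkc (0.0376 without control replicate 2) were lower.

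**Figure D3:**
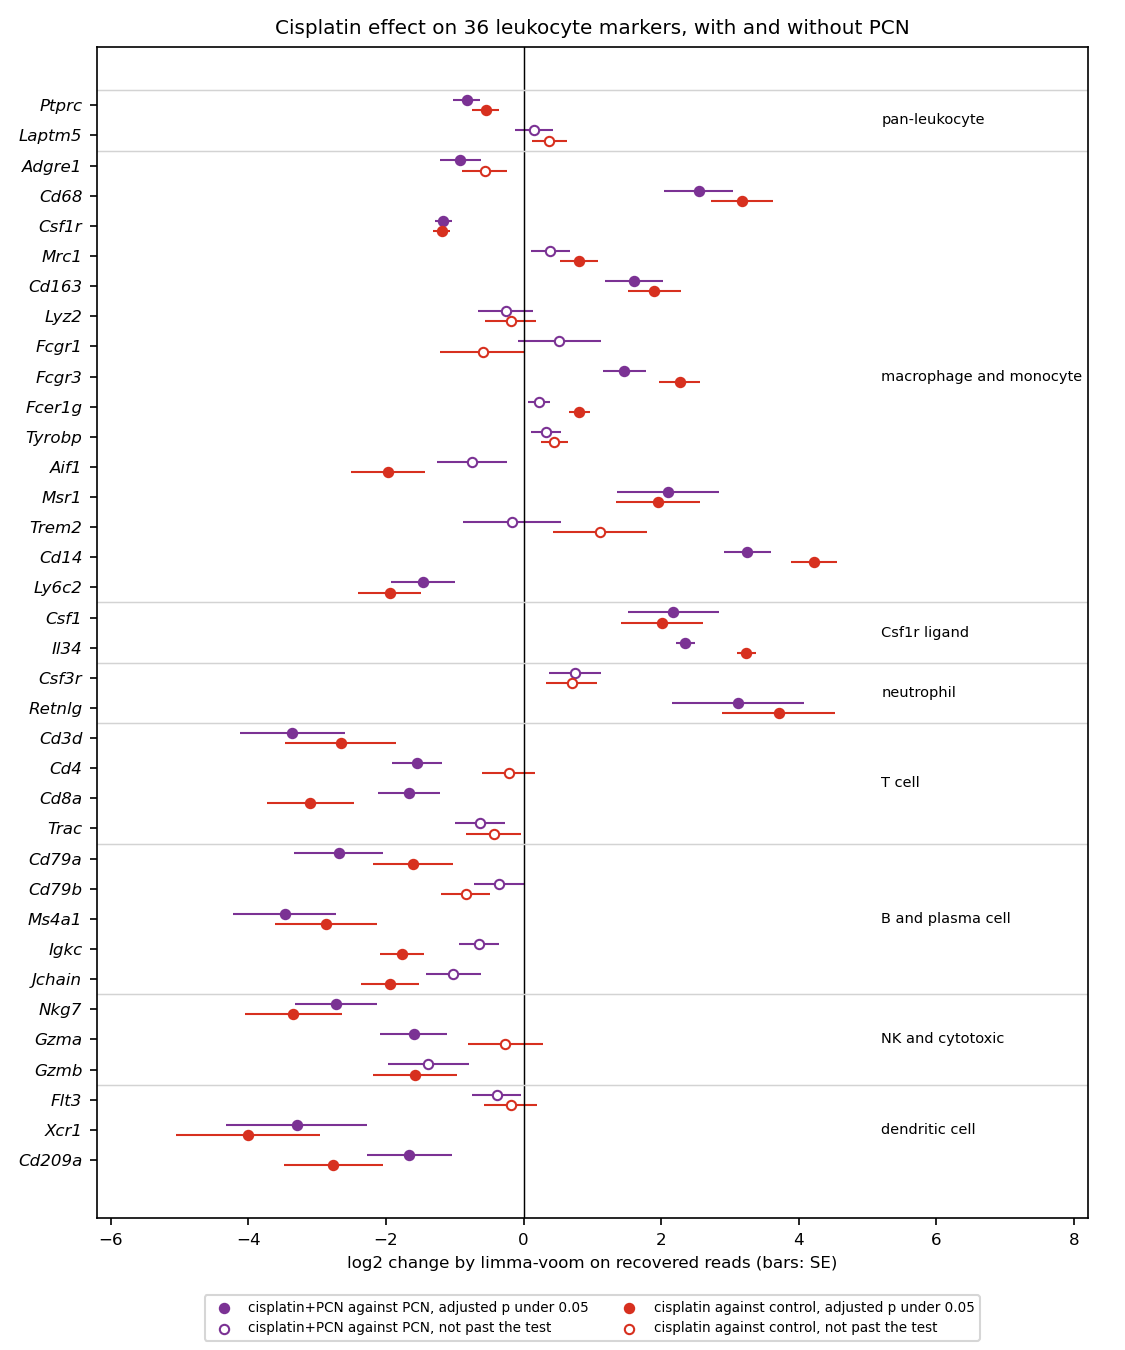
log2 change with cisplatin of the 36 markers that limma-voom could test (points, bars show SE), in cisplatin+PCN against PCN and in cisplatin against control, with filled points for an adjusted p under 0.05. Cd68, Cd14, both Csf1r ligands and Retnlg lie to the right in both, and all T, B, NK and dendritic markers lie to the left in both. Cd3d, Cd79a, Ms4a1, Nkg7, Gzma, Gzmb and Xcr1 reached the minimum of 10 reads only in libraries without cisplatin, and Retnlg only in libraries with it.

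The study's title names protection by PXR, so the next comparison was cisplatin+PCN against cisplatin. Of the 16 tested markers 5 were lower and 0 higher, against 7.61% and 7.97% of all genes (median -0.43, against 0). They were Cd14 (-1.02 ± 0.22, adjusted p = 0.0159), Il34 (-0.76 ± 0.13, adjusted p = 0.00853), Fcgr3 (-0.60 ± 0.18, adjusted p = 0.0441), Fcer1g (-0.60 ± 0.09, adjusted p = 0.00706) and Tyrobp (-0.50 ± 0.14, adjusted p = 0.0385), all in limma's test. In the values given above, none of the cisplatin+PCN libraries reached any cisplatin library for Cd14, Il34 or Fcer1g. Fcgr3 had 3.60, 6.27 and 6.08 FPKM in cisplatin+PCN and 7.18, 9.23 and 8.88 FPKM in cisplatin libraries. Tyrobp had 7.04, 11.01 and 10.9 FPKM in cisplatin+PCN and 12.5, 15.5 and 13.5 FPKM in cisplatin libraries. Neither pair of groups overlapped, and replicate 1 of cisplatin+PCN was the lowest for both. All 5 calls ended when only the 6 libraries compared were fitted, with adjusted p of 0.111 to 0.176 and 1 gene called in all, against 2110 when the 12 libraries share an estimate of spread. Leaving out single libraries ended the calls of Fcgr3 (adjusted p up to 0.133) and Tyrobp (up to 0.0974) in 10 and 11 of 12 cases and that of Cd14 without cisplatin+PCN replicate 3 (0.0592), and those of Il34 and Fcer1g in no case by limma. By limma-voom 5 of 36 were lower and 0 higher, against 6.13% and 7.05% (median -0.125, against -0.0051). Cd68 (-0.99 ± 0.30, adjusted p = 0.0460 by limma-voom) was there in place of Tyrobp (adjusted p = 0.0764, and 0.0346 without cisplatin+PCN replicate 2). Of the 5, Fcer1g did not pass by limma-voom without cisplatin replicate 3 (0.0597), and Cd68 and Fcgr3 each failed in 11 of the 12 fits that left out a library.

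Cd68 did not pass in the main test (-0.86 ± 0.28, adjusted p = 0.0590 in limma's test), and replicate 2 of cisplatin+PCN, at 15.6 FPKM, lay within the cisplatin range. Without that library its adjusted p was 0.00275, and that of Retnlg was 0.00353 against 0.146 with it. Csf1 spanned 3.17 to 15.9 FPKM in cisplatin+PCN and 7.92 to 16.5 FPKM in cisplatin libraries and did not differ beyond that spread (adjusted p = 0.676 in limma's test). Igkc was 2.77 ± 0.317 FPKM in cisplatin+PCN and 1.71 ± 0.155 FPKM in cisplatin libraries, without overlap, and did not pass (adjusted p = 0.0916 in limma's test; 0.0264 without control replicate 2). Of the lymphoid and dendritic markers 0 of 15 passed by limma-voom (median 0.20) and 0 of 17 by limma with no minimum, against 1.77% of all genes lower and 1.42% higher. Of the 9 proximal tubule genes, 6 were higher in cisplatin+PCN than in cisplatin kidneys by limma, although the sums given above overlapped, and 4 of the 9 tubular injury genes were lower. Their part in the lower macrophage markers was not tested.

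**Figure D4:**
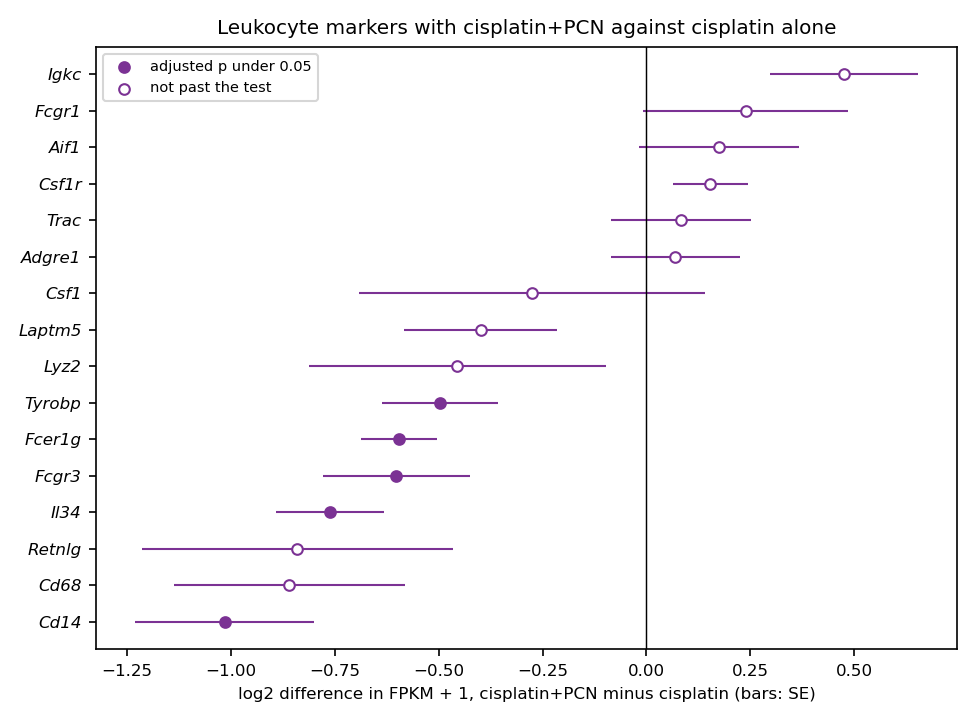
Difference in log2(FPKM + 1) of the 16 tested markers, cisplatin+PCN minus cisplatin (points, bars show SE), ordered by size. The 5 filled points, Tyrobp, Fcer1g, Fcgr3, Il34 and Cd14, had an adjusted p under 0.05, and all of them lie left of 0.

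Whether PCN altered the response to cisplatin itself was asked with the interaction, the cisplatin change with PCN minus that without it. No marker passed, with 0 of 16 by limma and 0 of 36 by limma-voom, against 0.111% and 0.331% of all genes called. At an unadjusted p under 0.05 there were 5 markers by limma and 4 by limma-voom. The lowest adjusted p among them was that of Il34, with an interaction of -0.84 (0.102 in limma's test; 0.0802 by limma-voom), and it passed without cisplatin replicate 2 (0.0170 in limma's test) and, by limma-voom, without cisplatin+PCN replicate 2 (0.0400). Leaving out cisplatin replicate 2 also brought Cd14 under the threshold (0.0213), leaving out cisplatin+PCN replicate 2 did so for Cd68 (0.0459) and Retnlg (0.0485), and leaving out control replicate 2 did so for Igkc (0.0458). The difference between the cisplatin changes with and without PCN was therefore not called for Fcer1g or Aif1, which passed in only 1 of the contrasts. PCN alone against control gave 0 called markers and 0 called genes by both methods (0% of genes), with 2 markers and 438 genes at an unadjusted p under 0.05 by limma and 2 markers and 430 genes by limma-voom. The 2 by limma were Tyrobp (-0.39, 8.01 ± 0.567 FPKM in PCN and 10.8 ± 0.448 FPKM in control libraries) and Igkc (-0.40), and the 2 by limma-voom were Cd4 (0.89) and Gzma (1.21).

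Other genes of these lineages also moved in both directions. Of 10 other pan-leukocyte genes, 8 could be tested by limma, and 2 were higher and 2 lower with cisplatin, against 32.0% higher and 31.9% lower of all genes tested. Cd53, a membrane protein of leukocytes, was higher with cisplatin (0.77) and lower in cisplatin+PCN than in cisplatin kidneys (-0.65). Of 20 other macrophage genes, 13 could be tested by limma, and 6 were higher and 2 lower with cisplatin, against the same shares. Chil3, a chitinase-like protein of recruited myeloid cells, had 10.9, 6.45 and 11.4 FPKM in cisplatin and 0.164, 0.296 and 0.274 FPKM in control libraries (3.05, adjusted p = 2.25e-05 in limma's test). Plac8 (1.60) and the cathepsin gene Ctss (1.24) were also higher, and the inhibitory Fc receptor gene Fcgr2b was lower (-0.95, 2.80 to 4.85 FPKM in cisplatin and 8.24 to 8.43 FPKM in control libraries). By limma-voom the integrin gene Itgam, which encodes CD11b, was higher (2.49), and Cx3cr1, the fractalkine receptor of resident macrophages and monocytes, was lower (-2.16). Of 39 other lymphoid and dendritic genes with no minimum on FPKM, 13 were lower and 2 higher with cisplatin (median -0.041), against 15.7% lower and 16.3% higher of all genes. Summed FPKM overlapped between cisplatin and control libraries for other T cell genes (1.59 to 1.96 and 1.57 to 3.02). The sums also overlapped for other NK genes (1.86 to 2.26 and 1.74 to 2.76) and other dendritic genes (6.85 to 7.37 and 6.44 to 7.46). Those of other B and plasma cell genes did not (4.49 to 5.31 and 6.27 to 8.35). The immunoglobulin heavy chain gene Ighm was lower by limma-voom (-3.60), while Mzb1, a gene of antibody-secreting cells, was higher (0.95 in limma's test). Foxp3, the factor of regulatory T cells, was higher by limma-voom (2.42), at 0.228 to 0.313 FPKM in cisplatin and 0.0336 to 0.0938 FPKM in control libraries.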

How the data were processed

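Kidney RNA of 12 libraries in 4 groups was read from the table of FPKM values that the authors deposited for 52636 genes. Per the submitters' processing notes, the aligner was HISAT2 2.0.5 and the counter featureCounts 1.5.0-p3, and the notes also list DESeq2 1.16.1 and edgeR 3.18.1, with no role given. The notes name mm8, but 52489 gene identifiers are in GENCODE M21 for GRCm38 and 95.2% of them have the same start and end there, so coordinates are read as GRCm38. Whether counting used strand was not stated, so antisense and overlapping genes may share reads. FPKM times gene length, divided by a step estimated from each library's own values, gave whole reads within 0.001 for 100% of values. limma 3.58.1 (R 4.3.3) fitted log2(FPKM + 1) with a pseudocount of 1 and an intensity trend, all 12 libraries in 1 fit of 4 group means, two-sided, for 5 comparisons. The library sizes implied by the FPKM values were 0.952 to 1.108 of the recovered read totals. Library sizes in limma-voom were the recovered totals, with which the median change of all genes was 0.099 (log2) in cisplatin against control. The limma procedure was run on simulated data with the same spread for every gene and changes only in well-read genes. That setting differs from these libraries and does not cover the low markers. With 3 libraries a group the smallest p of an exact permutation test is 0.1, so none was run. Same-numbered libraries correlated at -0.281 to 0.366 after removal of group means, over 0.1 in 4 of 18 pairs, so the numbers were not taken to pair libraries. The markers, the lists of other genes and the rule for named genes (every marker past a test, up to 3 genes per other list and direction, with a few chosen after their values were seen) were chosen with earlier results of these data known. Other settings were pseudocounts of 0.1 and 0.5, other minimums, 3 other scalings, array weights, a replicate block, only the groups compared, and leaving out each library. Settings for limma-voom were added after seeing the data.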

Additional observations from a re-analysis of the deposited data

How the results depend on the processing

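All 10 markers called with cisplatin alone by limma kept direction and call in each of 23 other settings (230 of 230 fits), and no called marker changed sign in any comparison. The count of 10 became 24 with no filter, 24 with a minimum of 0.1 FPKM and 24 by limma-voom, because more markers are tested, and was 10 to 12 without single libraries. For cisplatin+PCN against PCN the 9 became 20, 20 and 21 under the same settings and 8 to 9 without single libraries, and the genes called became 9555 with array weights. The comparison of cisplatin+PCN with cisplatin depended most on the fit. Its 2110 genes became 1008 with no filter, 6862 with array weights, 1 with only the groups compared and 580 to 3390 without single libraries. Its 5 markers became 3 with no filter, 3 with a minimum of 0.1 FPKM and 3 with quantile normalization. With array weights they became 10, of which 6 were lower and 4 higher. They became 0 with only the groups compared and 2 to 7 without single libraries. By limma-voom, counts without single libraries were 19 to 25 for cisplatin against control (24 with all), 15 to 22 for cisplatin+PCN against PCN (21), 2 to 7 for cisplatin+PCN against cisplatin (5) and 0 to 1 for the interaction (0). PCN against control gave 2 genes with no filter. The interaction's 15 genes became 4315 with array weights, 57 by limma-voom and 9 to 1066 without single libraries, and its 0 markers became 6 with array weights and 0 to 2 without single libraries. The cause of these shifts was not tested.

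With a replicate block, the markers called were 11 (cisplatin against control), 9 (cisplatin+PCN against PCN), 5 (cisplatin+PCN against cisplatin), 0 (PCN alone) and 1, Il34 at an adjusted p of 0.0358, in the interaction, and the genes called were 8455, 6152, 1675, 0 and 14. By limma-voom with the replicate block the markers were 26, 22, 4, 0 and 0. Depth limits the low markers: 22 of the 43 stayed under 1 FPKM in every library, and 7 had too few reads for limma-voom.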
